A study of Mus musculus with 4 samples.

Results

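Myoglobin and 4 genes of fatty acid handling, Mb, Fabp3, Fabp4, Fabp5 and Lpl, were followed in C2C12 cells, a line of mouse myoblasts, after an siRNA against the transcription factor MEF2A. They were chosen by name with their FPKM in these libraries and their difference between the groups already known, so their values are a description and carry no test. All 5 were listed in the deposited tables, with 6 transcripts between them, out of 13824 gene symbols and 36231 transcripts. FPKM, the unit throughout, counts fragments relative to both the length of a transcript and the size of a library, so that levels of different genes can be set side by side.

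Both groups were C2C12 cells that spent 48 h in differentiation medium (2% horse serum) following Lipofectamine transfection with 30 nM siRNA. The siRNA was scrambled in 2 libraries and siMEF2A in the other 2, numbered 1 and 2 in each group by the titles. Separate cultures are not stated, so a p-value here covers the spread among these libraries alone, which may be technical. The targeted gene Mef2a was at 25.8 and 32.2 FPKM in scrambled against 12.7 and 14.3 FPKM in siMEF2A, a mean of 46.5% of scrambled (limma adjusted p = 3.35e-05). Depth relative to scrambled replicate 1 was read from the commonest ratios of low FPKM values. It was 1.05 in scrambled replicate 2 and 0.850 and 0.848 in siMEF2A replicates 1 and 2. By this reading both siMEF2A libraries were shallower. Only 23 to 44 of 2134 genes lay at these ratios, and a scaling between libraries would also enter them. The depths are therefore rough, and absolute depth is unknown. These are bulk RNA samples, in which fewer cells of a type and less RNA per cell cannot be told apart.

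Myoglobin is the heme protein that stores oxygen and eases its diffusion in cardiac and oxidative skeletal muscle, and its gene is switched on late in muscle differentiation. Fatty acids reach muscle in part as triglyceride in lipoproteins, which lipoprotein lipase (Lpl) cleaves at the capillary wall. Inside the cell, small cytosolic fatty acid binding proteins carry them: Fabp3 encodes the heart and muscle form, Fabp4 the adipocyte form and Fabp5 the epidermal form. MEF2 factors bind an A/T-rich element in many muscle genes, and MyoD-family factors bind E-boxes.

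The start regions of Mb and Fabp3 are shown because these genes had the largest differences of the 5. RefSeq promoter windows (GRCm38.p6, the assembly of mm10) were matched by symbol for 2 of the 5 genes, Mb and Fabp3. Fabp4, Fabp5 and Lpl are named only. The Mb stretch is the 250 bases before the start of transcript ENSMUST00000169226, at chr15:77022788-77023037 on the minus strand. The Fabp3 stretch is the 30 bases from -50 to -21 before the RefSeq start, at chr4:130308688-130308717 on the plus strand. GENCODE places the start of the listed Fabp3 transcript 143 bases further upstream. Capitals mark E-boxes (CANNTG), the CACCC box and, in Fabp3, a match to the MEF2 consensus with 1 mismatch.
Mb: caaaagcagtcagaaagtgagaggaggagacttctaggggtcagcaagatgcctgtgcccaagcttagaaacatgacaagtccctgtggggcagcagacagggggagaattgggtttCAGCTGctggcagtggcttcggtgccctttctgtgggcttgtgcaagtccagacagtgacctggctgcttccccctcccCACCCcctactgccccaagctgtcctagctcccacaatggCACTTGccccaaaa
Fabp3: ttcatCATGTGatgcgagggCTATTTAAAG

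Both strands were searched in the 250 bases before each start. Before the Mb start printed above, E-boxes lay at -133 to -128 and at -14 to -9, and a CACCC box at -54 to -50. Counted from the start of ENSMUST00000019037, the more abundant Mb transcript, 60 bases downstream, these lay at -193 to -188, -74 to -69 and -114 to -110, and that window held a further E-box, CATGTG, at -52 to -47. The third RefSeq start of Mb, at 77050668, which is not that of a listed transcript, had E-boxes at -216 to -211 and -165 to -160. In Fabp3, counted from the RefSeq start, an E-box lay at -45 to -40, a CACCC box at -64 to -60 and the MEF2-like stretch at -30 to -21. The GENCODE start of the listed transcript is 143 bases further upstream, so all of these lie downstream of it. The 107 bases of this window before both starts held none of these motifs. An E-box was found in 66.2% of 32851 RefSeq windows of this length and a CACCC box in 52.0%. The MEF2 consensus was found in 2.9% of windows exactly and in 25.0% with at most 1 mismatch. None of the Mb and Fabp3 windows held an exact match to it, and the letters TATAAA, found in 12.4% of windows, were in none of them. The nuclear receptor half-site AGGTCA, found in 14.0% of windows, lay at -77 to -72 in the window printed for Mb, on the opposite strand. A match is a description of the letters and not a bound site.

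Mb (ENSMUSG00000018893, chromosome 15, 77015487 to 77050670, minus strand) was at 21.2 and 21.4 FPKM in scrambled against 4.69 and 5.80 FPKM in siMEF2A. Both siMEF2A libraries were far under both scrambled libraries, and the groups did not overlap. The mean was 21.3 ± 0.144 FPKM in scrambled, compared with 5.24 ± 0.787 FPKM in siMEF2A (SD, n = 2 each), or 24.6% of the scrambled level. On the log2(FPKM + 1) scale, which understates the change of genes at low FPKM, the difference was -1.84. The 4 differences between single libraries of opposite groups ran from -1.98 to -1.71, against 0.013 between the scrambled libraries and 0.26 between the siMEF2A libraries. In level, Mb stood above 67.3% of the genes tested in scrambled and above 27.9% in siMEF2A.

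Both of the Mb transcripts listed were lower in siMEF2A. Their starts, 60 bases apart, are the starts of the overlapping RefSeq windows at Mb. ENSMUST00000019037, with 4 exons and 550 bases, was at 13.1 and 11.1 FPKM in scrambled against 3.82 and 4.01 FPKM in siMEF2A, or 32.4% of scrambled. ENSMUST00000169226, with 3 exons and 1104 bases, was at 8.16 and 10.3 FPKM in scrambled against 0.865 and 1.79 FPKM in siMEF2A, or 14.4%. The longer transcript made up 38.4% and 48.2% of Mb FPKM in scrambled and 18.4% and 30.9% in siMEF2A, so its share was lower in both siMEF2A libraries. With 2 libraries against 2, an exact two-sided permutation test cannot go below 1 in 3, and none was run. All 550 bases of the shorter transcript lie within the longer one, which adds 554 bases, 414 of them beyond the 3' end of the shorter. The antisense gene Gm49540 covers 408 of the added bases and none of the shared ones. A use of strand in the counting is not stated, so reads of the 2 genes cannot be told apart there, and the split between the Mb transcripts is uncertain.

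Fabp3 (ENSMUSG00000028773, chromosome 4, 130308595 to 130315463, plus strand) was at 3.94 and 4.78 FPKM in scrambled against 1.43 and 1.14 FPKM in siMEF2A. Both siMEF2A libraries were under both scrambled ones. The mean was 4.36 ± 0.596 FPKM in scrambled, compared with 1.28 ± 0.205 FPKM in siMEF2A (SD, n = 2 each), 29.5% of scrambled, with a log2 difference of -1.23. Single-library differences ran from -1.43 to -1.02, and replicates differed by 0.23 in scrambled and -0.18 in siMEF2A (replicate 2 minus 1). In level, Fabp3 stood above 24.3% of the genes tested in scrambled and above 3.15% in siMEF2A.

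A processed pseudogene, Fabp3-ps1, has 99.25% identity to the Fabp3 transcript over 402 bases, so reads of the 2 can be split between them. It was listed at 0.480 and 0.709 FPKM in scrambled against 0.369 and 0.494 FPKM in siMEF2A, with overlapping groups. With the pseudogene added in, a choice made after seeing the data, Fabp3 was at 34.6% of scrambled, with a log2 difference of -1.13. The gene Zcchc17 on the opposite strand shares 81 exonic bases with Fabp3 and was at 115% of scrambled (limma adjusted p = 1.0). Gm10570, also on the opposite strand, shares 80 exonic bases with Fabp3 and was not listed. A use of strand in the counting is not stated, so reads in these bases cannot be told apart. Their part in the Fabp3 values was not tested.

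Fabp4 (ENSMUSG00000062515, chromosome 3, 10204088 to 10208576, minus strand) was near the lower end of the measured range. It was at 2.30 and 1.54 FPKM in scrambled against 0.767 and 1.18 FPKM in siMEF2A. The groups did not overlap, but scrambled replicate 2 and siMEF2A replicate 2 were close to each other. The siMEF2A mean was 50.7% of scrambled, from 1.92 ± 0.541 to 0.975 ± 0.293 FPKM (SD, n = 2 each). The log2 difference was -0.56, with single-library differences from -0.90 to -0.22. The replicates differed by -0.38 in scrambled and 0.30 in siMEF2A, more than the smallest difference between libraries of opposite groups.

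Fabp5 (ENSMUSG00000027533, chromosome 3, 10012548 to 10016607, plus strand) was the most abundant of the 3 fatty acid binding protein genes and the one with the smallest difference. It was at 20.7 and 19.4 FPKM in scrambled against 16.3 and 15.4 FPKM in siMEF2A. Both siMEF2A libraries were lower, at a mean of 79.0% of scrambled (20.1 ± 0.911 and 15.9 ± 0.639 FPKM, SD, n = 2 each) and a log2 difference of -0.32. Replicates agreed within 0.088 in scrambled and 0.077 in siMEF2A on the log2(FPKM + 1) scale.

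The Fabp5 level itself is uncertain, because processed pseudogenes resemble its transcript. Such genes with at least 90% identity to it over at least 300 bases numbered 5, and 1 of them, Gm6166, was listed. Gm6166 has 98.29% identity over 409 bases and was at 20.7 and 18.7 FPKM in scrambled against 16.4 and 15.9 FPKM in siMEF2A. Its share of the sum of the 2 genes was 49.5% ± 0.627 in scrambled and 50.4% ± 0.547 in siMEF2A (SD, n = 2 each), nearly an even split. The sum was 39.8 ± 2.30 FPKM in scrambled, compared with 32.0 ± 0.936 FPKM in siMEF2A (SD, n = 2 each), 80.5% of scrambled, so the ratio between the groups was nearly that of Fabp5 alone while the level was not.

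The 3 fatty acid binding protein genes together were at 27.0 and 25.8 FPKM in scrambled against 18.5 and 17.7 FPKM in siMEF2A. Fabp5 made up 76.9% and 75.5% of this total in scrambled and 88.1% and 86.9% in siMEF2A. The share of Fabp3, the muscle form, was 14.6% and 18.6% in scrambled and 7.72% and 6.42% in siMEF2A. The share of Fabp4 overlapped between the groups, at 5.97% to 8.54% in scrambled and 4.15% to 6.67% in siMEF2A. Their coding sequences have 56.2% to 64.3% identity in bases to each other, far less than Fabp3 and Fabp5 have to the pseudogenes named above.

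Lpl (ENSMUSG00000015568, chromosome 8, 68880491 to 68907448, plus strand) was the only one of the 5 genes with a higher mean in siMEF2A. It was at 0.897 and 1.44 FPKM in scrambled against 2.63 and 1.98 FPKM in siMEF2A. Both siMEF2A libraries were above both scrambled ones, at a mean of 198% of scrambled (1.17 ± 0.382 and 2.31 ± 0.465 FPKM, SD, n = 2 each). The log2 difference was 0.61, with single-library differences from 0.29 to 0.94. Replicates differed by 0.36 in scrambled and -0.29 in siMEF2A, so the smallest difference between opposite groups was less than that between the scrambled replicates and about that between the siMEF2A replicates.

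**Figure D1:**
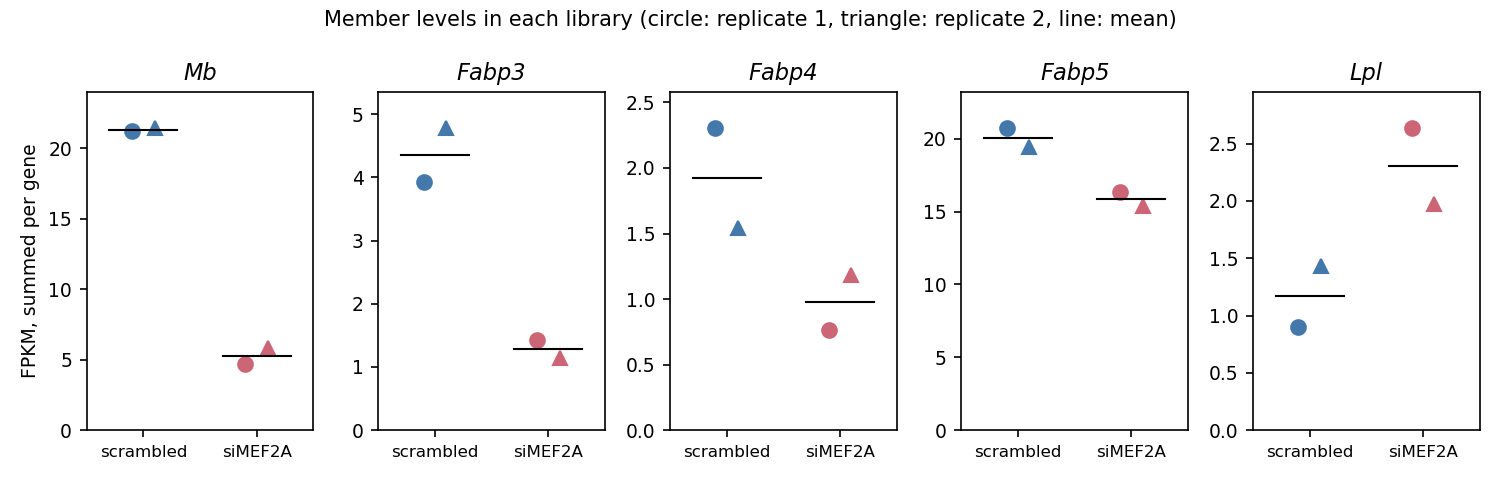
FPKM of Mb, Fabp3, Fabp4, Fabp5 and Lpl in each library, with scrambled in blue and siMEF2A in red, circles for replicate 1, triangles for replicate 2 and a line at each mean of 2 libraries; the vertical axes start at 0 and differ in range. The groups do not overlap in any of the 5 panels, Lpl alone is higher in siMEF2A, and the replicates of Mb lie close together at 21.2 and 21.4 FPKM in scrambled.

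The order of the 5 levels differed between the groups. In scrambled it was Mb, Fabp5, Fabp3, Fabp4 and Lpl, and Mb and Fabp5 differed by 1.23 FPKM, little more than the SD of 0.911 FPKM of Fabp5. Fabp4 and Lpl there differed by 0.754 FPKM, with an SD of 0.541 FPKM for Fabp4. These places take Fabp5 without its pseudogene: summed with Gm6166 it was at 39.8 FPKM in scrambled, above Mb at 21.3 FPKM. In siMEF2A the order was Fabp5, Mb, Lpl, Fabp3 and Fabp4, and the last 2 overlapped. The ratio of Mb to Fabp5 alone was 1.02 and 1.10 in scrambled and 0.287 and 0.376 in siMEF2A, whereas the ratio of Mb to Fabp3 overlapped, at 4.48 to 5.39 in scrambled and 3.28 to 5.09 in siMEF2A. Mb at 24.6% and Fabp3 at 29.5% of scrambled were lower by similar factors.

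**Figure D2:**
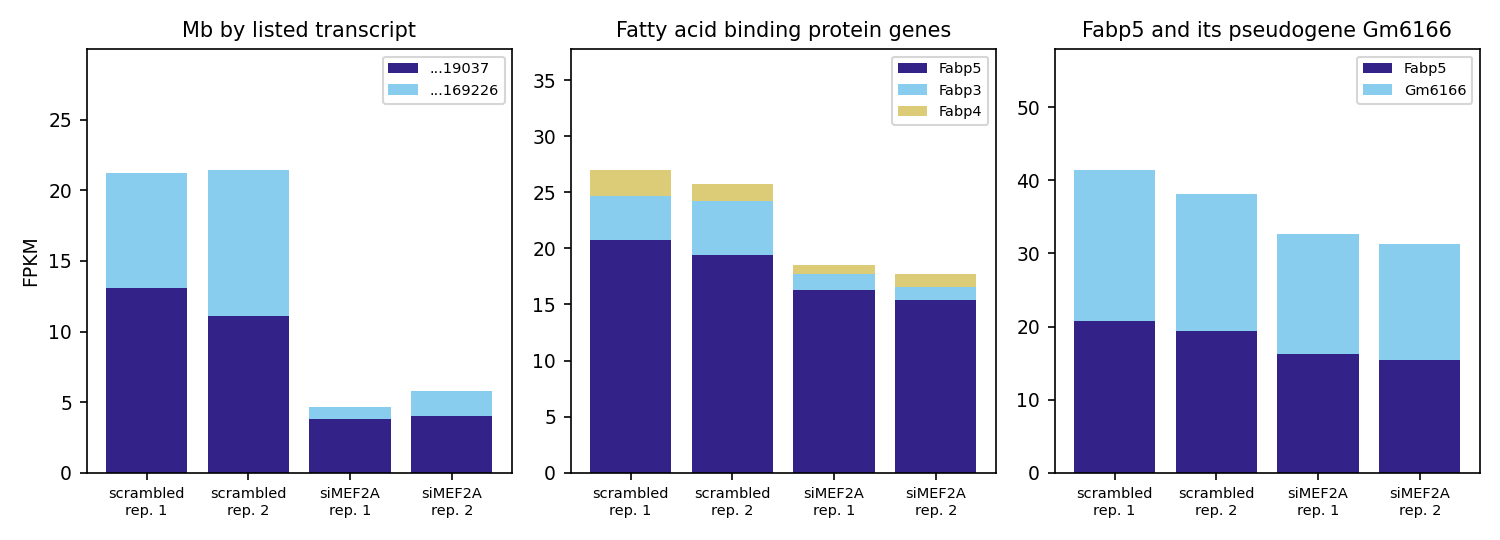
Stacked FPKM in each of the 4 libraries for the 2 listed Mb transcripts (named by the last digits of their identifiers), for Fabp5, Fabp3 and Fabp4, and for Fabp5 with its pseudogene Gm6166. The siMEF2A bars are lower in each panel, the longer Mb transcript and Fabp3 take smaller shares there, and Gm6166 holds on average 49.5% of its bar in scrambled and 50.4% in siMEF2A.

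Among the 11824 genes tested with limma, 204 (1.73%) passed at an adjusted p under 0.05, 156 lower (1.32%) and 48 higher (0.406%) in siMEF2A. All 5 members passed the minimum mean of 1 FPKM and were in this fit, where Mb and Fabp3 were among the genes called lower and Lpl among those called higher. The 2 groups did not overlap for 5 of 5 members and for 28.0% of all genes tested. Since the members were chosen with this contrast known, these counts describe the choice and support nothing. The placement of Lpl among the called genes was lost under median-ratio and upper-quartile scaling, with a pseudocount of 0.1, without a filter on low values, with small RNA symbols kept, without an intensity trend, and without scrambled replicate 1 or siMEF2A replicate 1. Fabp4 was among the called genes without scrambled replicate 2, without siMEF2A replicate 2 and with the replicate block. Median-ratio scaling left 13 genes higher and 131 lower over all genes (91.0% lower, against 76.5%).

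**Figure D3:**
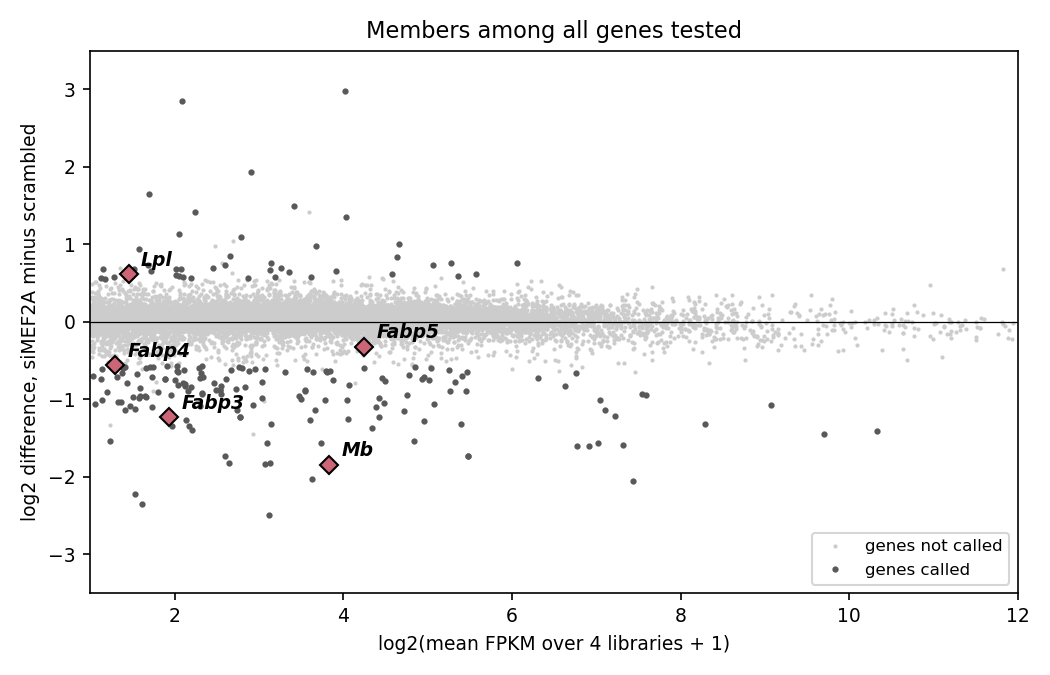
Log2 difference, siMEF2A minus scrambled, against log2(mean FPKM over 4 libraries + 1) for all genes tested, with called genes in dark grey and the 5 members as diamonds; 16 genes lie outside the axes. Mb at -1.84 and Fabp3 at -1.23 lie among the called genes under 0, Fabp4 and Lpl lie at low levels, and Fabp5 at -0.32 lies among the genes not called.

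The genes most like each member were taken by Euclidean distance between log2(FPKM + 1) values centred on each gene's mean over the 4 libraries, among 7952 genes whose mean reached 5 FPKM. With 4 libraries in 2 groups, this was mostly a match of the group difference. Fabp3, Fabp4 and Lpl had means under 5 FPKM, where this scale understates the change. Their neighbours, at higher levels, all changed by smaller factors than they did. For Mb they were Myl4, an embryonic myosin light chain, at 23.8% of scrambled (distance 0.27), Smpx, a small muscle protein, at 22.5% (0.30), and Myh3, a heavy chain of embryonic myosin, at 33.0% (0.34). For Fabp3 they were Ckm, the muscle creatine kinase, at 39.9% (0.12), Myl6b, a myosin light chain, at 43.3% (0.13), and Casq2, a calsequestrin, at 36.3% (0.17). These 6 genes all fell in the fit of all genes (limma adjusted p from 4.77e-10 to 4.46e-06). They were picked for their match to Mb and Fabp3 in the same libraries, so their calls follow from the choice and support nothing.

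The other members had different neighbours. Nearest to Fabp4 were Aamdc, Fgd3 and Rassf7, at 63.4% to 68.8% of scrambled, none of which passed (limma adjusted p = 0.0549, 0.120 and 0.05004). Nearest to Fabp5 were Higd1a, a mitochondrial protein of the hypoxia response, at 79.9%, Arl6ip5 at 82.4% and Pkig, an inhibitor of protein kinase A, at 77.8%, and none passed (0.718 to 1.0). Nearest to Lpl were Gmds, an enzyme of fucose synthesis, at 154% of scrambled (limma adjusted p = 0.0367), Gpr149 at 150% (0.157) and Tmod3, a tropomodulin, at 147% (0.0898).

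Genes that work with the members were taken from lists written by role. In fatty acid uptake and activation, 0 of 11 genes tested passed limma, with 1 under 0.05 before adjustment. It was Cav1, the gene of caveolin 1, at 137% of scrambled (adjusted p = 0.336). Slc27a1, a fatty acid transporter of muscle, was at 50.3 and 49.4 FPKM in scrambled against 54.1 and 59.3 FPKM in siMEF2A, and Dbi, which binds acyl-CoA, was at 80.1% with overlapping groups (limma adjusted p = 1.0 for both). Cd36, the fatty acid translocase, was chosen after its values were seen. At 0.463 and 0.458 FPKM in scrambled against 2.66e-05 and 2.75e-05 FPKM in siMEF2A it was under the minimum for a test. Without that filter it was called lower (limma adjusted p = 0.00936), as was Acsl6, an acyl-CoA synthetase also named after its values were seen, at 33.1% of scrambled (0.0312).

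Among partners of lipoprotein lipase and lipoprotein receptors, 0 of 13 genes tested passed limma and 4 were under 0.05 before adjustment. First among these was Apoe, an apolipoprotein, which was at 7.71 and 10.3 FPKM in scrambled against 13.8 and 12.6 FPKM in siMEF2A (log2 difference 0.52, SE 0.16, limma adjusted p = 0.103). Apoe passed without scrambled replicate 2 (log2 difference 0.70, limma adjusted p = 0.0167), and without scrambled replicate 1 its difference was 0.33 (limma adjusted p = 1.0). Sdc1, a heparan sulphate proteoglycan that binds lipoproteins, was at 127% and Sort1, the sorting receptor sortilin, at 64.9% (limma adjusted p = 0.704 and 0.578). The median log2 difference of the list was 0.064, beside 0.045 over all genes tested.

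Mitochondrial fatty acid oxidation, the route that fatty acids carried by Fabp3 enter, had 0 of 27 genes called by limma and 0 at an unadjusted p under 0.05. Their median log2 difference was 0.10. Acadm, the medium-chain acyl-CoA dehydrogenase, was at 123% of scrambled, Pdk4, a pyruvate dehydrogenase kinase, at 129%, and Cpt1b, the muscle carnitine palmitoyltransferase, at 82.1% (limma adjusted p from 0.799 to 1.0). Among 17 triglyceride and lipid droplet genes 0 passed limma and 0 were under 0.05 unadjusted, with a median of 0.011. Plin2, which coats lipid droplets, was at 233 and 299 FPKM in scrambled against 327 and 333 FPKM in siMEF2A, Abhd5, an activator of triglyceride lipase, at 120% and Hilpda at 114% (limma adjusted p = 1.0 for each).

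Of 18 genes of PPAR, PGC-1 and ERR regulators, 1 fell and 0 rose. It was Prkag3, the muscle regulatory subunit of AMP-activated protein kinase, at 6.92 and 6.01 FPKM in scrambled against 3.08 and 3.34 FPKM in siMEF2A (log2 difference -0.82, SE 0.15, limma adjusted p = 6.46e-04). Ppargc1a, the coactivator PGC-1alpha, was at 131%, Pparg at 129% and Ppargc1b at 72.0% of scrambled, each without overlap and none past the test (limma adjusted p from 0.795 to 0.960).

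For Mb, lists of heme and oxygen were compared. Of 16 globin and heme metabolism genes, 0 passed limma and 0 were under 0.05 unadjusted, with a median log2 difference of 0.087. Blvrb, a biliverdin reductase, was at 124%, Cpox at 118% and Uros, like Cpox an enzyme of heme synthesis, at 87.7% (limma adjusted p = 1.0 for each). Of 21 hypoxia response genes 0 passed limma and 2 were under 0.05 unadjusted, with a median of 0.068. Car9, a carbonic anhydrase, was at 67.3% (limma adjusted p = 0.412), Higd1a at 79.9% (0.774) and Bnip3, a mitophagy receptor, at 83.4% with overlapping groups (1.0).

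Most slow and oxidative fibre genes tested were lower in siMEF2A, as Mb and Fabp3 were. Of 11 tested, 7 fell and 0 rose, and the median log2 difference was -1.09. The slow troponin genes Tnnc1, Tnni1 and Tnnt1 fell to 39.8%, 33.0% and 49.6% of scrambled, and Cox6a2 and Cox8b, muscle forms of cytochrome c oxidase subunits, fell to 28.2% and 39.4%. Casq2 fell to 36.3% and Csrp3, a muscle LIM protein, to 28.0% (limma adjusted p of the 7 from 1.02e-08 to 2.29e-04). Csrp3 was near the lower end of the measured range, at 2.91 and 2.62 FPKM in scrambled against 0.987 and 0.561 FPKM in siMEF2A. Cox7a1, another muscle oxidase subunit, was at 2.49 and 0.999 FPKM in scrambled against 0.611 and 1.11 FPKM in siMEF2A, with overlapping groups (0.257). Its log2 difference of -0.52 was -0.92 without scrambled replicate 2 and -0.71 without siMEF2A replicate 2, but -0.32 without siMEF2A replicate 1. Without scrambled replicate 1 it was not tested, so the size of its difference depends on single libraries. Fhl1, a LIM protein, was at 80.1% (0.816) and Tpm3, a tropomyosin, at 115% (1.0). The lower values were not particular to slow forms. Tnnc2 and Tnnt3, fast troponin genes among the myotube markers read below, were at 32.6% and 45.2% of scrambled. Parts of the slow and oxidative fibre list were already known from these data to be lower in siMEF2A, so its count is no independent evidence of direction.

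**Figure D4:**
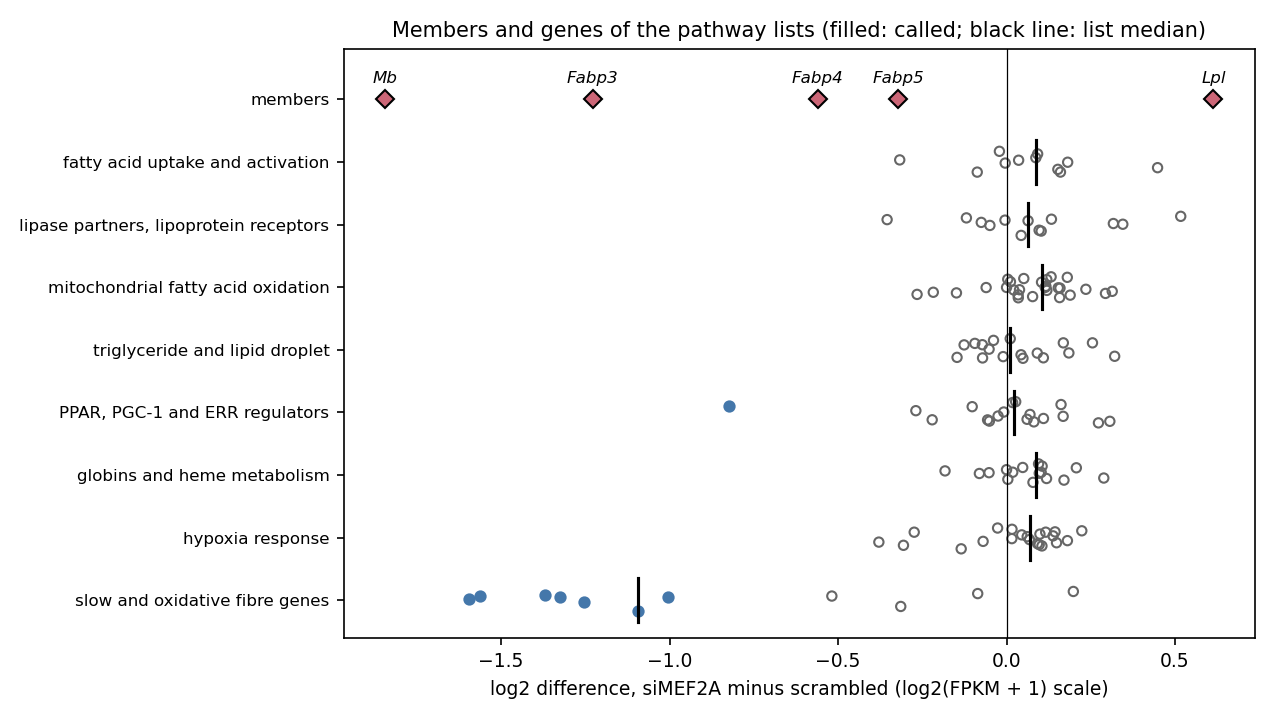
Log2 difference, siMEF2A minus scrambled on the log2(FPKM + 1) scale, of the 5 members (diamonds) and of each tested gene in 8 lists, filled where called by limma, with a black line at the list's median. Called genes number 7 in the slow and oxidative fibre list and 1 among PPAR, PGC-1 and ERR regulators (Prkag3), and the medians of the lists other than the fibre list lie between 0.011 and 0.10.

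Markers of the cells were read beside these results. Of 8 myotube markers 7 were listed, among them Myog, Ckm and Myh3, and their summed level was 566 to 609 FPKM in scrambled and 256 to 262 FPKM in siMEF2A, so the summed myotube level moved with Mb and Fabp3. All 6 that were tested fell. Of 8 markers of myoblasts and satellite cells 5 were listed and tested, 0 passed limma (3 were under 0.05 unadjusted), and their sum was 368 to 417 FPKM in scrambled and 323 to 356 FPKM in siMEF2A. These 5 split in direction: Des, the most abundant, was at 71.0% of scrambled, Myod1 at 71.6% and Myf5 at 93.8%, while Vcam1 was at 135% and Sdc4 at 117%, each without overlap between the groups. Fabp4 and Lpl are also genes of adipocytes and macrophages, and Fabp4 is one of endothelium. Of 8 adipocyte markers, Pparg and Cebpa were listed, with a summed level of 5.48 to 6.95 FPKM in scrambled and 7.21 to 7.48 FPKM in siMEF2A, and the other 6 were not analysed here. Of 8 macrophage markers, Cd68, Lyz2 and Cd14 were listed. Their sum was 16.0 to 18.2 FPKM in scrambled and 19.0 to 20.3 FPKM in siMEF2A. Most of it was Cd14, at 115% of scrambled, while Cd68 was at 93.7%, each without overlap between the groups. Lyz2, at means of 0.554 FPKM in scrambled and 0.896 FPKM in siMEF2A, overlapped. The 8 endothelial markers were not analysed here. The part of the myotube, adipocyte and macrophage genes in the member values was not tested.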

How the data were processed

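RNA-seq of 2 scrambled and 2 siMEF2A libraries was used. The authors deposited FPKM for each Ensembl transcript and library, per the file headers. Reads had been handled with CASAVA, Trimmomatic, Bowtie, TopHat and Cufflinks on mm10, per the submitters' processing notes. The annotation, settings, and scaling between libraries were not given in the sources used here. Transcript lengths and coordinates came from GENCODE mouse release M21, in which 97.3% of listed transcripts were found.

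FPKM were summed per gene symbol, 26 symbols starting with Mir, Snor or Scarna were dropped, and the 11824 genes whose mean reached 1 FPKM were compared as log2(FPKM + 1) with limma 3.58.1 in R 4.3.3 (intensity trend, two-sided). Benjamini-Hochberg adjustment ran over all these genes, with calls under 0.05. The fit had 2 residual and 29.0 prior degrees of freedom and was tested on simulated data. Simulated spreads were drawn from the variances that limma fitted here, and changes were placed only in genes above about 5 FPKM. That test does not cover changes at the levels of Fabp3, Fabp4 and Lpl. Transcripts were compared with blastn 2.17.0. Alternatives were other scalings, filters and pseudocounts, a replicate block and leaving out each library.

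The members and lists were chosen with earlier results of these data known. Named genes were the members, Mef2a, each listed gene called, up to 3 more per list with the smallest p, and the 3 genes nearest to each member, leaving out symbols that start with Gm and a number or end in Rik. The result of 1 further list is not reported here. Pseudogenes and overlapping genes were named for their sequence or position.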

Additional observations from a re-analysis of the deposited data

How the results depend on the processing

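The 5 members kept their direction under every alternative run that gave a value. Fabp3, Fabp4 and Lpl had no value at a minimum mean of 5 FPKM. For most alternatives this was fixed in advance. The groups did not overlap for any member, so leaving out a library or changing the pseudocount could not reverse a direction. Filters, small RNA symbols, the block and the trend leave a member's difference unchanged. The scaling factors ran from 0.947 to 1.05, too narrow a range to reverse any member. Members other than Mb have 1 listed transcript each, so their transcript value repeats the main one. Only the value of the most abundant Mb transcript and the pseudogene sums were open to a reversal. With a pseudocount of 0.1 the log2 difference was -2.01 for Mb, -1.69 for Fabp3, -0.91 for Fabp4 and 0.95 for Lpl, and Mb was at -1.41 from its most abundant transcript alone. Over all genes, 28 were called higher with a pseudocount of 0.1, 29 without a filter, 13 under median-ratio and 13 under upper-quartile scaling, 24 without a trend and 23 when small RNA symbols stayed in, and 99 were called lower at a minimum mean of 5 FPKM. Leaving out 1 library gave 42 to 77 higher, the highest without scrambled replicate 2. The replicate block gave 217 higher and 291 lower. Nothing in the labels pairs the libraries, although replicate differences correlated across genes between the groups (r = 0.29). Under the block Cav1 (adjusted p = 0.0187) and Apoe (0.0140) passed, 1 gene each in their lists. Leaving out 1 library gave 0 to 1 called higher among lipase partners. Without a filter 2 uptake genes were called lower. At a minimum mean of 5 FPKM Prkag3 was not tested, which left 0 calls in its list. The causes were not tested. The limit set by depth could not be computed, as absolute depth is unknown.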
